A study of Mus musculus with 9 samples.

Results

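Guanylate-binding proteins (GBPs) are large GTPases whose genes are among the most strongly interferon-inducible in the mouse. The genes described here are the 10 members Gbp2, Gbp3, Gbp4, Gbp5, Gbp6, Gbp7, Gbp8, Gbp9, Gbp10 and Gbp11, found by symbol among the 54532 genes of a count table. Each symbol had a single identifier. The family was selected because it was high in Sub-ASCs, so its level in Sub-ASCs against the other groups is given as a description and was not tested. The comparison of PVASCs with Ab-ASCs did not enter that choice and was tested.

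The libraries were made from total RNA of adipose derived stem cells (ASCs), mesenchymal cells grown from the stromal fraction of fat. All cells came from C57BL/6 mice, with no genetic change or treatment named, and were cultured in stem cell medium to passages 3 to 6. Subcutaneous adipose tissue gave Sub-ASCs, abdominal adipose tissue gave Ab-ASCs and perivascular adipose tissue gave PVASCs, with 3 libraries for each depot and 9 in all. The age of the mice, the passage of each culture and whether libraries of a group came from separate mice are not given in the sources used here, so the p-values measure the spread between these libraries, which may be technical. The libraries held 20524173 to 29881036 counted reads. All 7 mesenchymal stem cell markers examined (Ly6a, Thy1, Eng, Cd44, Itgb1, Pdgfra and Pdgfrb) had reads in every group, with a summed level of 6895 to 6918 CPM (counts scaled to a common library size) in Sub-ASCs, 3673 to 3794 CPM in Ab-ASCs and 4267 to 4409 CPM in PVASCs. The higher sum in Sub-ASCs came from Pdgfra (2709 CPM against 443 in Ab-ASCs and 331 in PVASCs) and Ly6a (2049 CPM against 21.8 and 111), while Cd44 and Itgb1 were lowest in Sub-ASCs and Thy1 and Eng highest in PVASCs. Markers of endothelial cells summed to 714 to 723 CPM in PVASCs, against 167 to 181 CPM in Sub-ASCs and 61.0 to 63.0 CPM in Ab-ASCs. Those of mesothelial cells summed to 78.1 to 82.3 CPM in Ab-ASCs, 29.9 to 30.7 CPM in PVASCs and 1.26 to 2.28 CPM in Sub-ASCs. Single markers departed from these sums, with Tek of the endothelial list highest in Sub-ASCs (46.0 CPM against 14.8 in PVASCs and 10.1 in Ab-ASCs) and Krt19 of the mesothelial list highest in PVASCs (14.7 CPM against 4.39 in Ab-ASCs and 1.12 in Sub-ASCs). The part of these cells in the results was not tested.

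GBPs assemble on the vacuoles and surfaces of intracellular bacteria and parasites. They act there together with another family of interferon-inducible GTPases, the immunity-related GTPases (IRGs), and their action can open the way to inflammasome activation. Interferon gamma reaches the genes through the receptor chains Ifngr1 and Ifngr2, the kinases Jak1 and Jak2 and transcription factors such as Irf1. Its signal acts on promoters at a gamma-activated sequence (GAS), while IRF factors bind an interferon-stimulated response element (ISRE).

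The genes lie in 2 clusters of the mouse genome (GRCm38). On the plus strand of chromosome 3, Gbp5 (142493978 to 142522344), Gbp7 (142530342 to 142550149), Gbp3 (142560026 to 142573209) and Gbp2 (142620602 to 142638008) follow each other, with Gbp2b, a family gene that is no member of the 10, at 142594847 to 142619179. The other 6 lie on the minus strand of chromosome 5, where Gbp8 (105014150 to 105139540), Gbp9 (105077630 to 105139539) and Gbp4 (105115767 to 105139586) overlap and start next to each other. Gbp10 (105215699 to 105239533), Gbp6 (105270702 to 105293698) and Gbp11 (105323042 to 105346472) come after them. Of the members, 9 are listed as protein-coding, whereas Gbp11 is listed as a polymorphic pseudogene, which is intact in some mouse strains only.

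The sequences before a RefSeq transcription start are shown for the 4 members of chromosome 3, because they carry the letters of the elements through which interferon signals reach genes of this kind. They are RefSeq promoter sequences on GRCm38.p6, plus strand, cut so that at most 30 bases of an annotated exon are included, and capitals mark the matches. These starts are not the gene starts given above, as they lie 2956 bases inside the listed gene in Gbp5, 61 in Gbp2 and 18 in Gbp3. The stretch of Gbp5 and the match in Gbp2 are therefore within the listed genes.
Gbp5, chr3:142496684-142496929: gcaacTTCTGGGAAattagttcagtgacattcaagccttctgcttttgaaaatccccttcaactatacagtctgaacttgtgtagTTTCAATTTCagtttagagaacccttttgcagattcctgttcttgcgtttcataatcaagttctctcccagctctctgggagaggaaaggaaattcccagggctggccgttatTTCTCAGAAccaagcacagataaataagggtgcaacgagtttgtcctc
Gbp7, chr3:142530086-142530335: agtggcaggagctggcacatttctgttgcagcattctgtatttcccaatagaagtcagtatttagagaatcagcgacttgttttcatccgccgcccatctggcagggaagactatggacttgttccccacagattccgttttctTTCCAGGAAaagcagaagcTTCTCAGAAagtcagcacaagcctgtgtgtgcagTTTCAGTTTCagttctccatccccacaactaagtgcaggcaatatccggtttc
Gbp3, chr3:142559794-142560043: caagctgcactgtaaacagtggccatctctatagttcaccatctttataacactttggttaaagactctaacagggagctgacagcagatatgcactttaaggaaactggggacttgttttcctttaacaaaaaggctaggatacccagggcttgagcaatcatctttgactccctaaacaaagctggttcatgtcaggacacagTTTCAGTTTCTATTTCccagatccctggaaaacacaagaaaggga
Gbp2, chr3:142620413-142620631: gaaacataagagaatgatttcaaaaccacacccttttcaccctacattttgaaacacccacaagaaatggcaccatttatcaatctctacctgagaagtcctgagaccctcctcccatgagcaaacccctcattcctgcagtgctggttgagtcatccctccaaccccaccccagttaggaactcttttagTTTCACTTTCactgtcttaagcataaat
The ISRE core was searched as TTTCNNTTTC, or GAAANNGAAA on the opposite strand, and was found in the 250 bases before a start of all 4 members and of Gbp2b. Gbp3 has another RefSeq start in the table, at 142560356, with neither motif in the 250 bases before it. Of the 32851 promoters in the RefSeq table, 978 (2.98%) held it. Counted from the first base of the match to the RefSeq start, it lay 165 bases upstream in Gbp5, 53 in Gbp7, 59 in Gbp2 and 137 in Gbp2b. Gbp3 held 2 overlapping matches at 45 and 39 bases. The GAS letters TTCNNNGAA, which read the same on both strands, occurred in 2306 promoters (7.02%). Of these genes, Gbp5 held them at 245 and 52 bases and Gbp7 at 106 and 87 bases. A match describes the letters of the window and does not show a site in use. Promoters of the 6 members on chromosome 5 were not matched in the table.

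In Sub-ASCs the 10 genes together took 70823, 83499 and 78954 reads, or 0.298%, 0.322% and 0.294% of all reads. They took 1712, 1891 and 1888 reads in Ab-ASCs (0.00792% to 0.00834%) and 2787, 2485 and 2652 reads in PVASCs (0.00916% to 0.00933%). After scaling of the library sizes by the TMM method, the summed level was 3041, 3282 and 3011 CPM in Sub-ASCs, 91.9, 84.1 and 84.2 CPM in Ab-ASCs and 85.2, 84.2 and 84.4 CPM in PVASCs. Sub-ASC libraries were far above the rest, whereas the Ab-ASC and PVASC libraries overlapped on the CPM scale. As a share of unscaled reads PVASC libraries were all above Ab-ASC libraries, so the order of these groups depends on the scaling. The mean of PVASCs minus that of Ab-ASCs was -2.13 CPM (exact two-sided permutation test, p = 1, where 0.1 is the smallest p that 3 against 3 libraries allow). Its sign rests on Ab-ASC replicate 1 (91.9 CPM), as the other Ab-ASC libraries lay just below every PVASC library. In bulk libraries, fewer cells carrying a transcript and less of it per cell cannot be told apart.

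**Figure D1:**
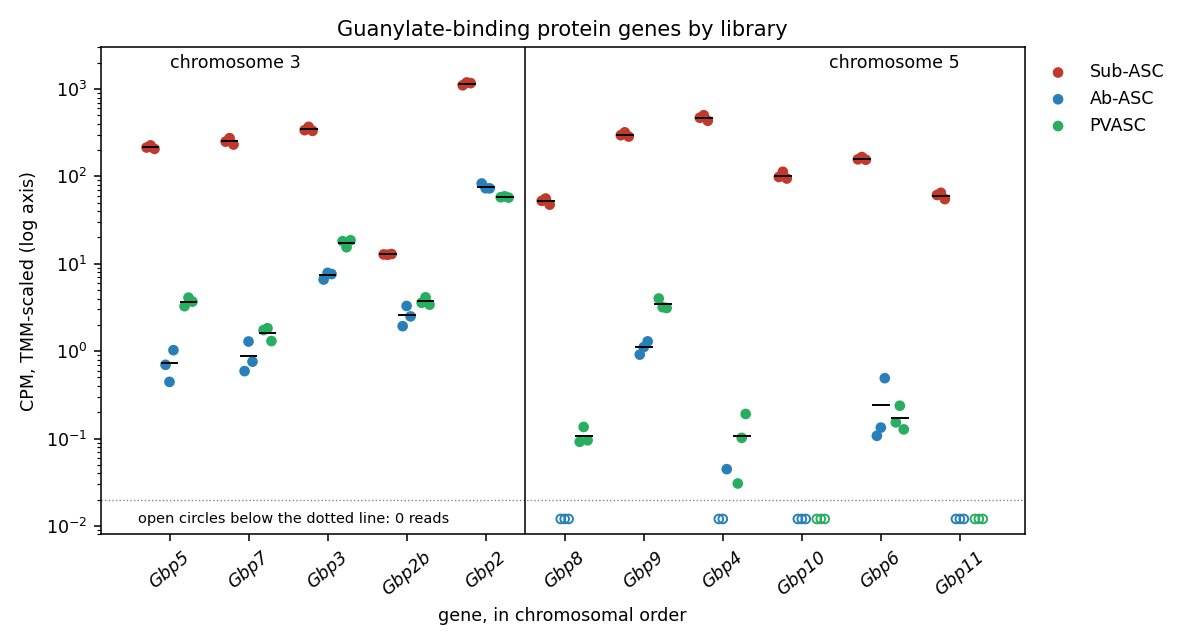
CPM of each guanylate-binding protein gene on a log axis, with 1 point for each library, lines for the group means where no library was at 0, and open circles below the dotted line for libraries with 0 reads. Every Sub-ASC library lies above all Ab-ASC and PVASC libraries for every gene shown, and the gap is narrowest for Gbp2b, which is not among the 10 members.

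Gbp2 was the member with the most reads in every library. It had 25705, 30275 and 30670 reads in Sub-ASCs, 1546, 1647 and 1636 in Ab-ASCs and 1889, 1746 and 1799 in PVASCs. Its level was 1154 ± 45.1 CPM in Sub-ASCs, 15.1 times that in Ab-ASCs (76.4 ± 5.73 CPM) and 19.9 times that in PVASCs (58.1 ± 1.01 CPM; SD, n = 3 here and below). Gbp2, which targets vacuoles of Toxoplasma in mouse cells, thus had a high level in Sub-ASCs and a moderate one in the other depots. The ratio to Ab-ASCs was the smallest among the 10 genes, and the ratio to PVASCs was as small only for Gbp3.

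Gbp3 had 7880, 9390 and 8705 reads in Sub-ASCs, 123, 177 and 171 in Ab-ASCs and 594, 456 and 585 in PVASCs. The 3 groups did not overlap, with Sub-ASCs highest (346 ± 19.9 CPM), PVASCs in the middle (17.4 ± 1.71 CPM) and Ab-ASCs lowest (7.37 ± 0.671 CPM). Sub-ASCs were 47.0 times Ab-ASCs and 19.9 times PVASCs.

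Gbp5, Gbp7 and Gbp9 had the same order of groups at lower levels outside Sub-ASCs. Gbp5, whose product is known as a factor in inflammasome responses, had 4985, 5769 and 5415 reads in Sub-ASCs, 13, 10 and 23 in Ab-ASCs and 107, 121 and 116 in PVASCs. Reads on Gbp7 numbered 5823, 6976 and 6073 in Sub-ASCs, 11, 29 and 17 in Ab-ASCs and 57, 54 and 41 in PVASCs. For Gbp9 there were 6899, 8129 and 7494 reads in Sub-ASCs, 17, 25 and 29 in Ab-ASCs and 131, 94 and 98 in PVASCs. Against Ab-ASCs the Sub-ASC level was 298.6 times as high for Gbp5, 286.5 times for Gbp7 and 271.7 times for Gbp9. Against PVASCs it was 58.5, 154.9 and 87.5 times as high. In Sub-ASCs these levels were 216 ± 10.2 CPM for Gbp5, 252 ± 21.4 CPM for Gbp7 and 300.5 ± 17.3 CPM for Gbp9.

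The 5 remaining members, all on chromosome 5, were close to or at 0 outside Sub-ASCs. Gbp4 had 10935, 12773 and 11362 reads in Sub-ASCs, 0, 0 and 1 in Ab-ASCs and 1, 3 and 6 in PVASCs. At 468 ± 34.4 CPM in Sub-ASCs it was second to Gbp2 in reads, yet a single read stood for it in all Ab-ASC libraries together. For Gbp4, Gbp6 and Gbp8, ratios are those of the reads summed over the libraries of a group and scaled by their TMM library sizes. The ratio of Sub-ASCs to Ab-ASCs for Gbp4 rests on that read and was 29730, with a counting interval (95%) of 5335 to 1174000, or 19200 without Ab-ASC replicate 2. The ratio to PVASCs, on 10 reads, was 4382 with a counting interval of 2383 to 9139, and it was 7277 without PVASC replicate 3. Gbp6 had 3653, 4241 and 4068 reads in Sub-ASCs, 2, 3 and 11 in Ab-ASCs and 5, 7 and 4 in PVASCs. Its Sub-ASC level of 159.6 ± 6.24 CPM was 633.7 times that in Ab-ASCs (counting interval 390.1 to 1109) and 934.2 times that in PVASCs (575 to 1635). Of the 16 Ab-ASC reads, 11 came from replicate 3, and without it the ratio to Ab-ASCs was 1312.

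Gbp10 and Gbp11 had 0 reads in all 6 libraries of Ab-ASCs and PVASCs. In Sub-ASCs there were 2294, 2875 and 2480 reads on Gbp10 and 1426, 1651 and 1442 on Gbp11. With 3 reads per library taken as the smallest measurable count, which is 0.0917 to 0.161 CPM at these depths, Gbp10 in Sub-ASCs exceeded the limit in Ab-ASCs at least 714.5-fold and that in PVASCs at least 1059-fold. For Gbp11 the bounds were 422.9-fold and 627-fold. Gbp8, with 1223, 1420 and 1245 reads in Sub-ASCs, had 0 reads in Ab-ASCs and 3, 4 and 3 in PVASCs. Its Sub-ASC level was 485.8 times that in PVASCs (counting interval 263.9 to 1014) and exceeded the limit in Ab-ASCs at least 363.7-fold. These limits and intervals hold counting error alone, as PCR copies make reads dependent on each other.

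For 10 of the 10 genes, every Sub-ASC library was above all 6 others, and this held for 30.7% of the 16526 genes with enough reads to be tested. A level in every Sub-ASC library at least 10 times that of all others was also met by 10 of 10, against 2.61% of tested genes. Both counts use the contrast for which the family was selected and are given as a description. The median log2 ratio of the members, with bounds in place of ratios to 0, was 8.36 to Ab-ASCs and 8.09 to PVASCs. Over all tested genes the median log2 fold change was -0.03 for Ab-ASCs against Sub-ASCs and -0.01 for PVASCs against Sub-ASCs. The Sub-ASC libraries differed little among themselves, with coefficients of variation of 3.9% to 9.72% (median 6.77%) over the 10 genes. The second Sub-ASC library was highest in CPM for 10 of 10 members.

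Levels between genes were compared as FPKM, read counts scaled to gene length as well as to the library. In Sub-ASCs the order was Gbp2 (449 ± 17.5 FPKM), Gbp3 (103.8 ± 6.15), Gbp4 (61.2 ± 4.63), Gbp9 (56.9 ± 3.39), Gbp7 (43.9 ± 3.82), Gbp5 (31.8 ± 1.58), Gbp6 (26.2 ± 1.08), Gbp10 (25.8 ± 2.51), Gbp11 (21.95 ± 1.87) and Gbp8 (14.8 ± 1.23). Among neighbours in this order, Gbp4 and Gbp9 overlapped in their libraries, as did Gbp6 and Gbp10. The libraries of the other neighbours did not overlap, though Gbp10 (23.8 to 28.6 FPKM) and Gbp11 (19.9 to 23.6 FPKM) lay close to each other. Gbp4, second in reads, was the third per length, since its listed length of 7494 bases is the longest of the family.

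The genes also differed in how much of the family each made up. Gbp2 made up 52.9%, 52.8% and 55.6% of the summed FPKM of the members in Sub-ASCs, 93.2%, 90.8% and 90.7% in Ab-ASCs and 76.1%, 78.7% and 76.0% in PVASCs. Gbp3 made up 12.2% to 12.6% in Sub-ASCs, 5.71% to 7.52% in Ab-ASCs and 15.8% to 19.1% in PVASCs. Outside Sub-ASCs the family was thus mostly Gbp2, with Gbp3 as the next gene. Members on chromosome 5 took 37.3%, 37.2% and 35.6% of the members' reads in Sub-ASCs, 1.11%, 1.48% and 2.17% in Ab-ASCs and 5.02%, 4.35% and 4.19% in PVASCs. All PVASC libraries were above all Ab-ASC libraries in this share, by 2.93 percentage points between the means (exact two-sided permutation test, p = 0.1, the smallest that the design allows), and by 1.68 points as a share of summed FPKM. Without members that share exonic bases with another gene, Gbp11 alone is left of chromosome 5 and the share was 0 in both groups. Outside Sub-ASCs these reads were mostly those of Gbp9, which held 71 of 88 in Ab-ASCs and 323 of 359 in PVASCs, against 26.3% in Sub-ASCs.

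**Figure D2:**
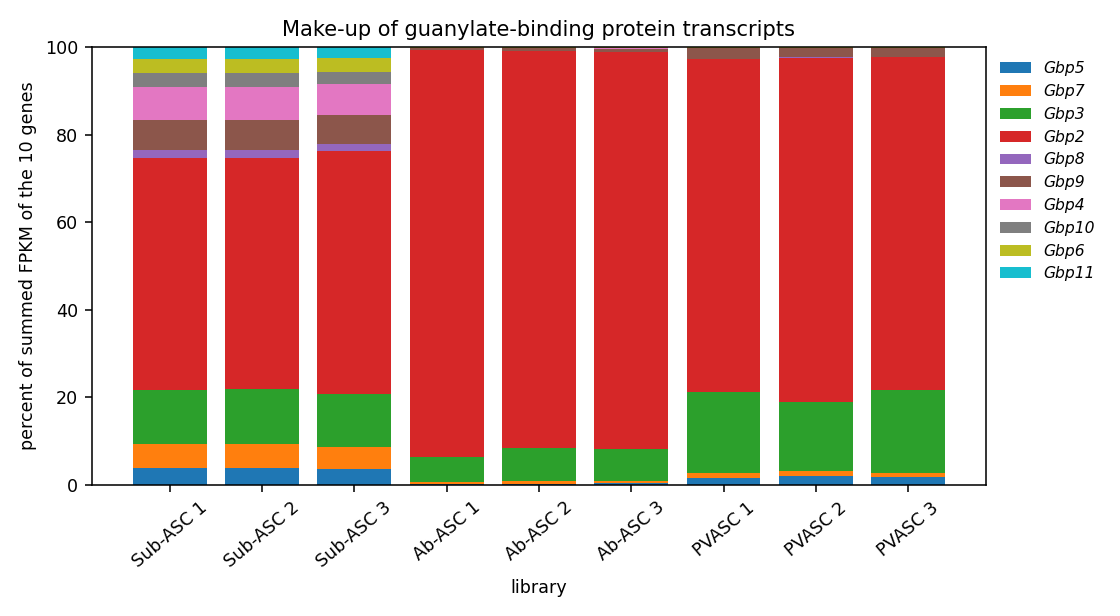
Stacked bars of the percent that each of the 10 genes made up of their summed FPKM, for each of the 9 libraries. Gbp2 makes up 52.8% to 55.6% in Sub-ASCs, 90.7% to 93.2% in Ab-ASCs and 76.0% to 78.7% in PVASCs.

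PVASCs differed from Ab-ASCs in both directions within the family, which the summed level does not show. In the quasi-likelihood test of edgeR, with Benjamini-Hochberg adjustment over all 16526 genes tested, Gbp3, Gbp5, Gbp7 and Gbp9 were higher in PVASCs and Gbp2 was lower, out of the 5 members with enough reads in these groups. Of all tested genes, 24.7% were higher and 32.1% lower in PVASCs, and 56.9% were called in either direction. Among these members Gbp5 rose most, by a log2 fold change of 2.34 (standard error 0.20, adjusted p = 1.25e-06), from 0.723 ± 0.291 to 3.69 ± 0.415 CPM. Gbp9 was higher by 1.62 (standard error 0.16, adjusted p = 4.51e-06), from 1.11 ± 0.190 to 3.44 ± 0.494 CPM. For Gbp3 the log2 fold change was 1.24 (standard error 0.10, adjusted p = 4.57e-07). The change of Gbp7 was 0.86 (standard error 0.25, adjusted p = 0.0117), from 0.879 ± 0.365 to 1.63 ± 0.282 CPM, with the nearest libraries at 1.29 and 1.30 CPM, and it was no longer called without Ab-ASC replicate 3 (0.74, adjusted p = 0.0501). Gbp2 fell by 0.40 on the log2 scale (standard error 0.06, adjusted p = 0.000146).

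The other members had too few reads outside Sub-ASCs for this comparison. Only Gbp2, Gbp3, Gbp5, Gbp7 and Gbp9 would pass the low-count filter on Ab-ASCs and PVASCs alone, and 5 of these 5 were called in the fit of all libraries and in a fit of those groups only. The remaining 5 entered the fit through their reads in Sub-ASCs, so their values are given as a description. Gbp8 had 0 reads in Ab-ASCs against 3, 4 and 3 in PVASCs, so no fold is given. For Gbp4 the ratio was 6.78, with a counting interval of 0.965 to 294. Gbp6 was at 0.244 ± 0.214 CPM in Ab-ASCs and 0.172 ± 0.0576 CPM in PVASCs. Gbp10 and Gbp11, with 0 reads in both groups, could not differ detectably at this depth. The median log2 fold change was 1.24 over the 5 members that pass that filter, 1.05 over all 10 with fitted values that rest on edgeR's prior count where reads were at 0, and -0.06 over all tested genes. In 5 of the 10 members, Gbp8 with its few reads included, every PVASC library was above every Ab-ASC library, as in 28.3% of tested genes.

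**Figure D3:**
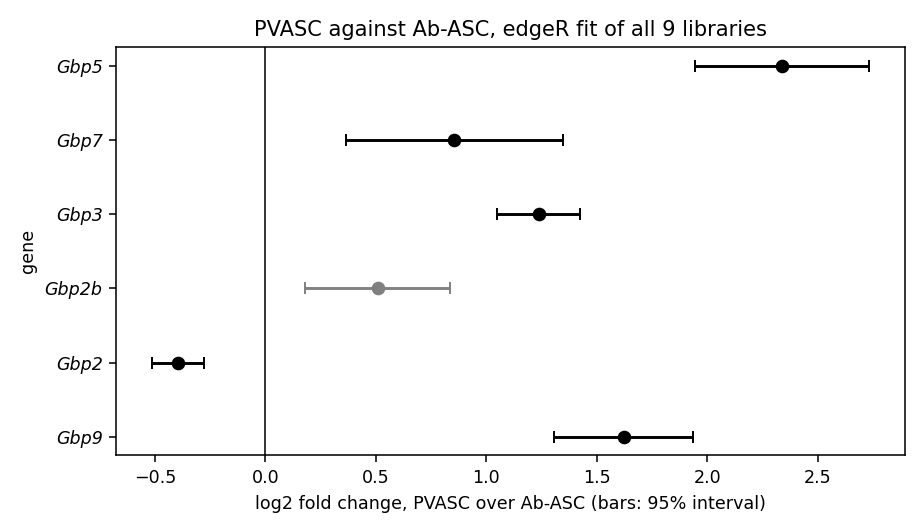
Log2 fold change of PVASCs over Ab-ASCs for the Gbp genes that have reads in every library of both groups and pass the low-count filter in those groups. Bars show an approximate 95% interval, from standard errors derived from the F statistic of edgeR. Gbp5, Gbp9, Gbp3 and Gbp7 lie above 0 and Gbp2 lies below it, while Gbp2b, in grey, is not among the 10 members.

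The clusters differ in how alike their genes are. In pairwise alignment of the longest coding sequence of each gene in GENCODE M21, the 6 genes on chromosome 5 shared 90.0% to 98.4% of bases (median 90.9%), with Gbp6 and Gbp10 the closest pair. The 5 genes on chromosome 3, Gbp2b included, shared 66.7% to 82.5% (median 68.05%), and genes of different clusters 65.6% to 76.5% (median 68.55%). Stretches of 100 bases that also occur in a transcript of another gene made up 73.5% of those in the transcripts of Gbp10, 64.5% for Gbp6, 10.01% for Gbp7, 5.13% for Gbp11 and 4.39% for Gbp8. The share was under 2% for Gbp3, Gbp4, Gbp5 and Gbp9, and it was 0 for Gbp2. Gm43302 shares 46.3% of the exonic bases of Gbp10 and 29.0% of those of Gbp6 on the same strand, but only 6, 8 and 18 reads were counted on it in Sub-ASCs and 0 elsewhere. The split of reads between Gbp6 and Gbp10 is therefore uncertain. As the counting of reads that match several genes is not given, so are their totals, their places in the FPKM order and their ratios and bounds. Gbp7 shares 11.3% of its exonic bases with Gm43802, which had 0 reads in every library. Gbp4, Gbp8 and Gbp9 share 0.814% to 1.77% of their exonic bases with each other. On the opposite strand, Gbp2 shares 0.954% of its exonic bases with Mir6381.

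**Figure D4:**
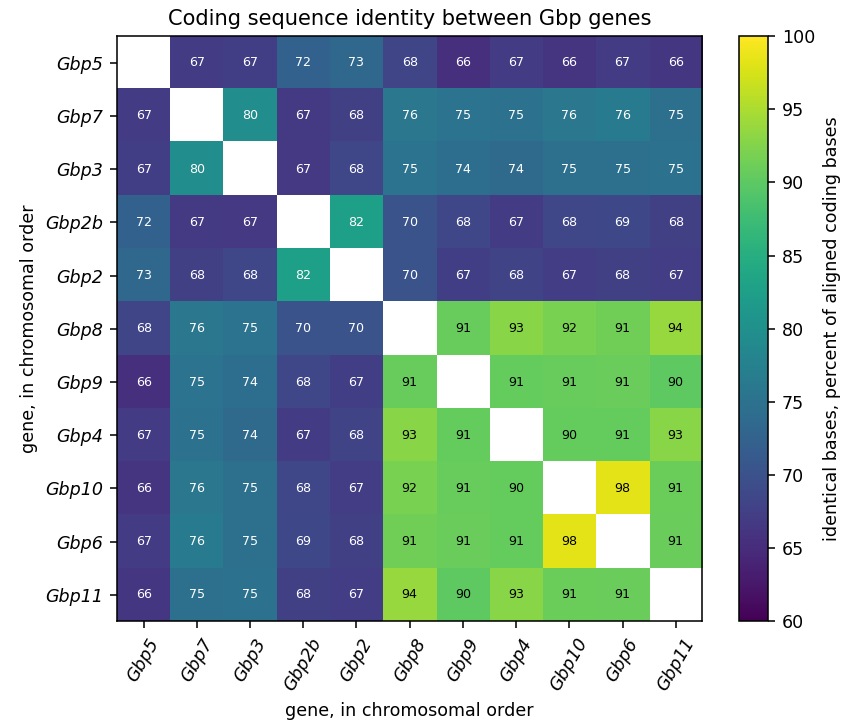
Identity between the longest coding sequences of each pair of Gbp genes, in percent of aligned bases, with genes in chromosomal order. The 6 genes on chromosome 5, from Gbp8 to Gbp11, form a block at 90.0% to 98.4%, while pairs on chromosome 3 and between the clusters lie between 65.6% and 82.5%.

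Gbp2b, the murine gene also known as Gbp1, lies between Gbp3 and Gbp2 and was also highest in Sub-ASCs, at a smaller difference. It had 298, 323 and 339 reads in Sub-ASCs, 36, 74 and 56 in Ab-ASCs and 117, 122 and 107 in PVASCs. Its level of 12.8 ± 0.116 CPM in Sub-ASCs was 4.98 times that in Ab-ASCs and 3.46 times that in PVASCs, below every ratio of the 10 members. Between PVASCs and Ab-ASCs its log2 fold change was 0.51 (standard error 0.17, adjusted p = 0.0213, edgeR). That call was lost without Ab-ASC replicate 1 (adjusted p = 0.0728), Ab-ASC replicate 3 (0.0638) or PVASC replicate 2 (0.0755). The nearest tested protein-coding genes outside the clusters, examined after the family's values had been seen, differed between depots by other amounts and partly in the other direction. Pdlim5, which lies 98282 bases before Gbp5, had log2 fold changes over Sub-ASCs of 2.46 in PVASCs and 2.10 in Ab-ASCs. Kyat3, 63043 bases after Gbp2, was lower by 0.41 and 0.50, and the call in PVASCs was lost without PVASC replicate 1 (adjusted p = 0.0511). Around the cluster on chromosome 5, Zfp951 had log2 fold changes of -0.38 in PVASCs (not called, adjusted p = 0.0808) and -1.55 in Ab-ASCs, and Lrrc8b had 0.47 and -0.44.

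Genes of the pathway around the GBPs were then compared between depots from lists chosen by function. Interferon genes had been seen to be high in Sub-ASCs before the lists were written, so their direction is not independent evidence. Of all tested genes, 35.7% were lower and 34.7% higher in the comparison of PVASCs with Sub-ASCs, and 38.3% were lower and 37% higher in that of Ab-ASCs with Sub-ASCs. Together these made up 70.4% and 75.3% of tested genes. Against Sub-ASCs, PVASCs had 34 lower and 4 higher genes among the 46 tested of the 6 lists, and Ab-ASCs had 34 lower and 10 higher. Adjusted p-values are again those of edgeR over all genes tested, and both comparisons use the same Sub-ASC libraries.

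Among the interferon ligands and receptors, 5 of 8 genes had enough reads to be tested, of which 4 were lower and 1 higher in each of PVASCs and Ab-ASCs than in Sub-ASCs. Ifng, the ligand, had 64, 49 and 56 reads in Sub-ASCs and 0 in all Ab-ASC libraries. In PVASCs its 17 reads all came from replicate 2, and the difference from Sub-ASCs was called by edgeR (adjusted p = 0.00145) but not by DESeq2 (adjusted p = 0.261). Ifnl2 had 0 reads in every library and Ifnb1 a single read. The ligand binding chain Ifngr1 was lower in PVASCs by 1.26 and in Ab-ASCs by 0.93 on the log2 scale. By contrast, the partner chain Ifngr2 was the gene that was higher, with log2 fold changes of 0.71 in PVASCs (standard error 0.06, adjusted p = 4.42e-07) and 0.88 in Ab-ASCs (standard error 0.06, adjusted p = 5.41e-08). Each depot thus had reads for both chains.

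In the relay from receptor to nucleus, 11 of 11 genes were lower in PVASCs (median log2 fold change -1.99) and 11 of 11 in Ab-ASCs (median -2.48). Irf1 was at 317 ± 15.6 CPM in Sub-ASCs, 22.1 ± 2.26 CPM in Ab-ASCs and 15.2 ± 0.181 CPM in PVASCs. Its log2 fold changes were -4.38 in PVASCs and -3.84 in Ab-ASCs (adjusted p = 1.61e-13 and 3.81e-13). Stat2 had -3.77 in PVASCs and -4.49 in Ab-ASCs. Irf9, its partner on the ISRE, had -1.96 and -2.48, and Irf8 had -1.99 and -3.11. The inhibitors of JAK signalling were lower as well, with Socs1 at -3.42 and -3.64 and Socs3 at -2.80 and -2.95.

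The IRG genes, whose products act with the GBPs on vacuoles, were lower in 7 of 7 cases in both groups, with medians of -8.71 in PVASCs and -9.66 in Ab-ASCs. Iigp1, an effector that is loaded onto vacuoles, was at 1588 ± 121 CPM in Sub-ASCs, 1.90 ± 1.23 CPM in Ab-ASCs and 3.79 ± 0.206 CPM in PVASCs. Irgm1 and Irgm2, which with Igtp keep the effectors off the cell's own membranes, were at 507 ± 19.9 and 571 ± 17.2 CPM in Sub-ASCs. In the other depots they kept 27.4 ± 1.17 and 3.82 ± 0.324 CPM in Ab-ASCs and 45.4 ± 1.79 and 6.40 ± 0.289 CPM in PVASCs. The log2 fold changes of Irgm1 were the smallest of the list, at -3.48 and -4.21. Tgtp1 had at most 10 reads in any library outside Sub-ASCs and Gm12250, the gene of Irgb10, at most 7. Gm12250 is listed as a processed pseudogene.

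Inflammasome genes were lower in 6 of 8 tested cases in PVASCs and in 7 of 8 in Ab-ASCs, with none higher. Pycard, the adaptor ASC, had log2 fold changes of -4.74 and -4.34, Casp1 had -3.23 and -4.32, and Casp4, the sensor of cytosolic lipopolysaccharide, had -2.98 and -3.04. Gsdmd, which forms the pore of pyroptosis, was lower by 1.53 in PVASCs and 0.77 in Ab-ASCs. Aim2, a DNA sensor, did not pass the test in PVASCs (1.70 ± 0.218 against 1.76 ± 0.265 CPM, adjusted p = 0.875) and was lower by 1.5 in Ab-ASCs.

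The conjugation genes of autophagy, which help to place GBPs and IRGs on vacuoles, did not move together. In PVASCs 6 of 10 were lower, none higher and 4 not called, and in Ab-ASCs 4 were lower and 5 higher. Map1lc3b was lower in both, by 1.36 and 1.42, as were Atg7 (1.28 and 0.88) and Gabarapl1 (1.21 and 0.72). Atg5 was higher in Ab-ASCs (0.39), and its value in PVASCs was 0.15 (adjusted p = 0.179, called without Sub-ASC replicate 2 at 0.0104). The prenylation genes encode subunits of the enzymes that attach the lipid that anchors some GBPs (Fnta, Fntb and Pggt1b), and the protease Rce1 and methyltransferase Icmt, which process such proteins afterwards. They were mostly higher outside Sub-ASCs, in 3 of 5 cases in PVASCs and 4 of 5 in Ab-ASCs. Fntb and Fnta, the subunits of farnesyltransferase, had log2 fold changes of 0.46 and 0.28 in PVASCs and 0.88 and 0.64 in Ab-ASCs. Pggt1b, the subunit particular to the enzyme that adds geranylgeranyl lipids, was lower in Ab-ASCs by 0.46, and its value in PVASCs was 0.17 (adjusted p = 0.257). None of the changes of prenylation genes reached a log2 fold change of 1.

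**Figure D5:**
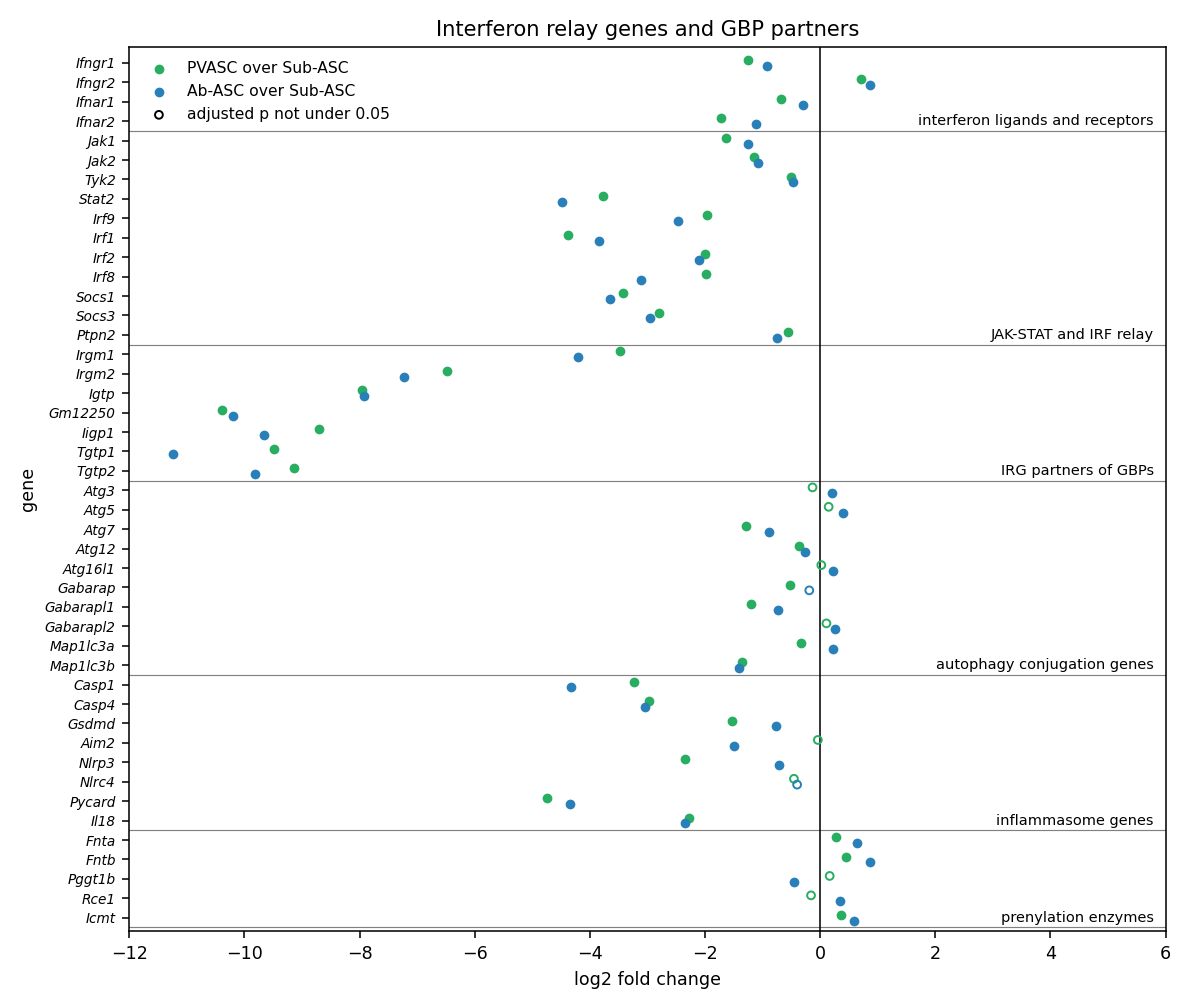
Log2 fold change of PVASCs (green) and Ab-ASCs (blue) over Sub-ASCs for the tested genes of 6 pathway lists, with open circles where the adjusted p was not under 0.05, and without Ifng, whose reads were at 0 in Ab-ASCs. Relay and IRG genes lie to the left of 0 in both groups, while autophagy and prenylation genes lie between -1.42 and 0.88.

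Between PVASCs and Ab-ASCs, 10 of the 46 tested pathway genes were higher in PVASCs and 19 were lower, beside 24.7% and 32.1% of all tested genes. Over the 42 with enough reads in these groups alone the counts were 9 and 19, as Tgtp1, with at most 2 reads in an Ab-ASC library and 10 in a PVASC library, entered the fit through its Sub-ASC reads. Directions differed within lists as well as between them. Among the relay genes, Irf8 (1.12, adjusted p = 3.97e-05), Stat2 (0.72) and Irf9 (0.52) were higher in PVASCs. Irf1 (-0.54, adjusted p = 9.83e-05) and Jak1 (-0.39) were lower. Irgm1 (0.73) and Irgm2 (0.75) were higher, and so was Iigp1 (0.96, adjusted p = 0.012), which DESeq2 did not call (adjusted p = 0.0567). The value of Iigp1 was 0.62 without Ab-ASC replicate 1 and 1.55 without Ab-ASC replicate 2. Igtp was at 2.97 ± 0.385 CPM in Ab-ASCs and 2.89 ± 0.667 CPM in PVASCs (adjusted p = 0.865). Of the inflammasome genes, Casp1 (1.10) and Aim2 (1.46) were higher in PVASCs and Gsdmd (-0.76) and Nlrp3 (-1.64) lower. Autophagy genes were lower in 7 of 10 cases and prenylation genes in 4 of 5, while Pggt1b was higher (0.62). Some of these calls depend on the scaling. As FPKM on library totals, Atg16l1 was at 4.37 in Ab-ASCs and 4.42 in PVASCs, and Icmt at 22.2 and 22.1. Gabarapl1 (48.3 and 40.4) and Map1lc3a (71.6 and 56.9) were lower in PVASCs on that scale too. The ligand binding chain Ifngr1 was lower (-0.33, adjusted p = 0.000317).

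Markers of T and NK cells, which are sources of interferon gamma, were highest in Sub-ASCs, as the family was. Of the 7 markers, 4 were tested, and 0 of these were called between PVASCs and Ab-ASCs, on few reads. The 7 markers summed to 9.36 to 10.1 CPM in Sub-ASCs, 0.357 to 0.483 CPM in Ab-ASCs and 0.0611 to 0.983 CPM in PVASCs. In Sub-ASCs all 7 had reads, with Gzmb at 128, 153 and 169, Cd4 at 27, 19 and 20 and Cd8a at 20, 12 and 23. Gzmb, at 5.98 CPM, carried most of the Sub-ASC sum. In Ab-ASCs Cd3e, Cd4, Cd8a, Ncr1 and Prf1 were at 0, while Gzmb had 9, 9 and 7 reads. In PVASCs Cd3e, Ncr1 and Prf1 were at 0. PVASC replicate 2 held all 17 Ifng reads of its group and 25 reads on Gzmb, which was at 0 in the other PVASC libraries. The members summed to 84.2 CPM in it, against 85.2 and 84.4 CPM in the others. Among the PVASC libraries it was highest for Gbp2, Gbp5, Gbp6, Gbp7 and Gbp8, lowest for Gbp3 and in between for Gbp4 and Gbp9. Of these, Gbp4, Gbp6 and Gbp8 had few reads in PVASCs. A link of Ifng to these levels was not tested. Of 12 macrophage markers, 10 were lower and 2 higher in each of Ab-ASCs and PVASCs than in Sub-ASCs, while their sum was 330 to 332 CPM in Sub-ASCs, 345 to 442 CPM in Ab-ASCs and 329 to 337 CPM in PVASCs. Lyz2, one of the 2 that were higher, carried much of that sum, and the other 11 markers summed to 166 to 172 CPM in Sub-ASCs, 107 to 124 CPM in Ab-ASCs and 83.2 to 86.5 CPM in PVASCs. The part of these cells in the level of the family was not tested.

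The 5 genes most like the family over the 9 libraries were Lvrn, Saa1, Igtp, Gdf10 and Abcc9. Likeness was measured as the root mean square difference of centred log2 CPM from the mean of the 10 members, and it was 0.33 for Lvrn, 0.38 for Saa1, 0.39 for Igtp and Gdf10 and 0.43 for Abcc9. Lvrn was at 114 ± 6.47 CPM in Sub-ASCs, 0.339 ± 0.107 CPM in Ab-ASCs and 0.355 ± 0.0829 CPM in PVASCs. Gdf10, Abcc9 and Igtp had Sub-ASC levels of 118.5 ± 3.04, 103 ± 4.95 and 721 ± 8.64 CPM and at most 2.97 CPM in the mean of any other group. Saa1, an acute phase gene, was at 16.8 ± 2.61 CPM in Sub-ASCs and had 0 reads in the other libraries.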

How the data were processed

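Total RNA of cultured cells was made into 9 libraries with the NEBNext Ultra kit, which does not mark strand. The authors deposited raw read counts per gene and library in a single table, and listed where each gene lies, its length and its biotype. The submitters' processing notes list CASAVA 1.8, Bowtie 0.12.2, featureCounts 1.5.0-p3 and the builds mm8 and mm10 without their roles. How reads matching several genes were counted is not given in the sources used here. For 53462 of 54532 genes the listed position was that of GENCODE M21 on GRCm38, all 10 members included.

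Groups were taken from the tissue labels, and all columns of counts belonged to a labelled sample. Counts were tested with edgeR 4.0.16 (limma 3.58.1, R 4.3.3). The steps were filterByExpr, TMM and the quasi-likelihood F-test, with all 9 libraries in 1 fit without covariates, Benjamini-Hochberg adjustment over 16526 genes and a threshold of 0.05. CPM uses TMM library sizes and FPKM uses library totals and listed gene length. Errors after ± are SDs of 3 libraries. Standard errors of log2 fold changes were derived from the fold change and the F statistic. The 95% intervals made from them use normal quantiles and are approximate. Folds against groups at 0 used 3 reads in each library, and ratios on few reads are of summed reads and carry an exact 95% interval for counts. Counts of the 16526 genes were also simulated, with 200 genes changed in PVASCs, and 15994 genes passed the filter. The simulation used a common dispersion and otherwise equal group means, so it is simpler than these data. Between PVASCs and Ab-ASCs, 90 of 100 genes changed 2-fold and 97 of 100 changed 4-fold were recovered, with 13 unchanged genes called.

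The members and all lists were chosen with earlier results of these data known. Named were all members, other genes with a Gbp symbol that had reads, Ifng, Ifngr1, Ifngr2, Irf1 and Irf8, genes of the pathway and marker lists, and the 5 genes most like the family. Of the pathway lists, 1 gene is not reported here and is left out of their counts. The neighbouring genes, shared sequence and promoter letters were examined after the values had been seen. Sequences were searched and aligned with Python 3.11.15, numpy 2.4.6, pandas 2.3.3, scipy 1.17.1 and biopython 1.88, and plots were made with matplotlib 3.10.9. As alternatives, DESeq2 1.42.0, RLE size factors, a fit unfiltered for low counts, a minimum of 10 reads per library, only the groups compared, a replicate block, a log2 fold change of 1 or more in size, each library left out, other FPKM scaling and a pseudocount of 1 FPKM in place of 0.1 FPKM were tried.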

Additional observations from a re-analysis of the deposited data

How the results depend on the processing

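For 107 results under up to 20 settings, 1289 of 1358 recomputed values kept their direction and their side of the threshold, or stayed within the range for counts and untested values. No called value changed direction. A required log2 fold change of 1 or more in size left 0 of the Gbp genes lower in PVASCs than in Ab-ASCs, 4 pathway genes higher and 1 lower there, and 0 pathway genes higher than Sub-ASCs in PVASCs and 0 in Ab-ASCs, by its own construction. On the scale of log2(FPKM + 0.1), the median ratio of Sub-ASCs over the members was 7.52 to Ab-ASCs and 6.76 to PVASCs, and with a pseudocount of 1 FPKM it was 4.82 and 4.62, since the larger pseudocount lifts members near 0. With each library left out it ranged from 7.40 to 7.56 and from 6.70 to 6.82. Of the 5 members with enough reads in PVASCs and Ab-ASCs, 3 to 4 were then higher in PVASCs and 1 was lower, with Gbp7 lost without Ab-ASC replicate 3. With members kept in the fit by their Sub-ASC reads, the counts were 5 to 6 higher and 1 lower, but these hold Gbp8 and in part Gbp4, on at most 6 reads in a library. Pathway genes numbered 4 to 5 higher and 34 to 35 lower in PVASCs than in Sub-ASCs, 8 to 10 higher and 33 to 35 lower in Ab-ASCs than in Sub-ASCs, and 9 to 12 higher and 16 to 19 lower in PVASCs than in Ab-ASCs. The share of reads from chromosome 5 differed by 2.68 to 3.22 percentage points, and by 1.68 points on FPKM sums. Without members that overlap another gene the difference was 0, as Gbp11 alone was left of chromosome 5, with 0 reads in both groups. Fits with fewer genes or groups left Gbp8 untested, so 4 Gbp genes were higher in PVASCs than in Ab-ASCs with only the groups compared.

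The call of Ifngr2 between PVASCs and Ab-ASCs (adjusted p = 0.032, edgeR) did not hold under several settings, with adjusted p up to 0.211, and the cause was not tested. That of Nlrp3 between Ab-ASCs and Sub-ASCs was lost without Sub-ASC replicate 3 (0.0548). Only the groups compared in the fit brought Zfp951 (0.0403) and Pggt1b (0.045) past the threshold between PVASCs and Sub-ASCs.

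Same-numbered libraries shared little variation, with correlations of their deviations from the group means between -0.0514 and 0.095 across genes, so the numbers were not taken as pairs. With the replicate block, 4 of the 5 members with enough reads were higher and 1 lower in PVASCs than in Ab-ASCs, and 9 pathway genes were higher and 19 lower.

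Depth limits Gbp4, Gbp6, Gbp8, Gbp10 and Gbp11 outside Sub-ASCs, where each had at most 11 reads in a library.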
